A study of Mus musculus with 10 samples.

Results

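The genes described here encode the transmembrane and plaque proteins of the tight junctions between Sertoli cells, measured in whole testes of 10 day old mice. They are the claudin genes Cldn11, Cldn3, Cldn5 and Cldn12, the occludin gene Ocln, the scaffold gene Tjp1 and the junctional adhesion molecule genes Jam2, Jam3 and F11r. Members were the probe sets whose platform annotation names 1 of these 9 genes and no other. This gave 16 of the 22626 probe sets on the array, for 8 of the 9 genes among the 12393 genes that the annotation names singly. No probe set was annotated to Cldn12 alone, so Cldn12 was not analysed here.

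Control pools came from mice with the AMH-Cre transgene, and SCARKO pools from mice in which Sertoli cells alone have lost their response to androgen. Both groups were 10 days old, were littermates, and gave whole testes in which all other testicular cells were still present. The labels name AMHCre for the control mice, a recombinase transgene driven by a promoter that is active in Sertoli cells. Each array held RNA pooled from 1 testis of each of 3 mice, with 5 control and 5 SCARKO pools made as 5 littermate pairs. For pairs 1 to 4 the title of each array gives one genotype and its description the other, while for pair 5 they match, and groups and directions below follow the titles.

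Sertoli cells line the seminiferous tubule, and late in the prepubertal period they seal the spaces between themselves with tight junctions that form the blood-testis barrier. Claudins are the membrane proteins that build the sealing strands, occludin is a further strand protein, and junctional adhesion molecules are immunoglobulin-type proteins that help to place the junction and to hold neighbouring cells together. The ZO proteins, of which Tjp1 encodes ZO-1, bind the tails of these membrane proteins and connect them to actin. Claudin 11 is the claudin that mouse Sertoli cells cannot do without, since males that lack it do not complete spermatogenesis.

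Upstream sequences are shown for Cldn11, the member with the largest fall among those tested, and for Ocln and Tjp1, the occludin and ZO-1 genes of the same junction. They come from RefSeq (GRCm38.p6) and hold the 250 bases before an annotated start (for Ocln the first listed of 2 starts), for Cldn11 chr3:31149670-31149919 on the plus strand, for Ocln chr13:100552719-100552968 on the minus strand and for Tjp1 chr7:65371245-65371494 on the minus strand. Each is written 5′ to 3′ in the direction of the gene, and capitals mark CCAAT boxes (CCAAT) and GC boxes (GGGCGG) or their reverse complements.
Cldn11: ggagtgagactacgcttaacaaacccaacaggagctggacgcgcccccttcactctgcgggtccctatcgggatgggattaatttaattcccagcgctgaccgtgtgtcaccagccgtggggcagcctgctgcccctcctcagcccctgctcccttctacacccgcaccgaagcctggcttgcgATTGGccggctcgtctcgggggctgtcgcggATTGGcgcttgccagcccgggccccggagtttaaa
Ocln: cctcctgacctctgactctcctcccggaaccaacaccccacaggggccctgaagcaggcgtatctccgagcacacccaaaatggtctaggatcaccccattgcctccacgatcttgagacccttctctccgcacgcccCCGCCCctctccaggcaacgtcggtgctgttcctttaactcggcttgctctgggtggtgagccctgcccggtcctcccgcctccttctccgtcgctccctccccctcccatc
Tjp1: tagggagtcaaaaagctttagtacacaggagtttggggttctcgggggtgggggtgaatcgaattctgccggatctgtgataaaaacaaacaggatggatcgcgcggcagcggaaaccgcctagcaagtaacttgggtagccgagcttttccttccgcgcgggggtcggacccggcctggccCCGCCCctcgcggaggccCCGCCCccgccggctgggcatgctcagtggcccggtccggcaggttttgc

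The Cldn11 window held 2 CCAAT boxes, both on the opposite strand, starting 66 and 35 bases before the start. The Tjp1 window held no CCAAT box and 2 GC boxes. The Ocln window shown held no CCAAT box and 1 GC box, but the window of its other annotated start (chr13:100552499-100552748, minus strand) held a CCAAT box 25 bases and a GC box 43 bases before that start. Whether Ocln differs from Cldn11 in holding a CCAAT box thus depends on which start is taken. RefSeq entries were found for 6 of the 8 measured members, all except Jam2 and Jam3. With the first listed start of each gene, CCAAT was found in 3 of these 6 (Cldn11, Cldn5 and F11r) and GGGCGG in 5, where 34.5% and 32.9% of 27025 gene promoters of the same length hold the motif on either strand. With all listed starts, CCAAT was found in 4 (Ocln added) and GGGCGG in 5, against 37.5% and 35.4% of genes. The half-site AGAACA of the androgen response element was in none of the 6 windows and in 16.2% of all promoters. The full palindrome of that element, in which 2 such half-sites face each other across 3 bases, was in none of the 6 and in 1 of all promoters. The motifs CACGTG and AGATAA were also absent from these 6 windows, against 6.05% and 10.3% of all promoters. An absent match says only that these letters are not in this window. The 6 windows at the first listed starts held 59.6% to 64% G and C bases, against a median of 52% over all promoters. The shares of all promoters are not matched for this, and no excess or lack of a motif was tested.

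The deposited values are linear signal intensities of probe sets, and their trimmed mean was 100 on every array. Intensities carry no read depth, and precision is limited by the number of arrays and by signals near background. With the littermate pair as a block, the limma p-values measure how the difference within pairs varies between pairs, moderated over probe sets. Signals under 1 were set to 1 before log2, and 13576 probe sets above a mean log2 signal of 4.27 (a signal of 19.3) were tested. Probe sets below that are called dim. Rhox5, a homeobox gene of Sertoli cells that responds to androgen, had a signal between 86.6 and 241.4 in control pools and between 7.9 and 12.7 in SCARKO pools, so in these libraries the titles separated the pools on this marker. Across the array, 704 of 13576 probe sets passed the test (5.19%), with 3.26% lower and 1.93% higher in SCARKO.

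Of the 16 member probe sets, 9 reached the tested signals and represent 7 genes. The other 7 were dim, and among them were all 4 of Cldn3. Among the 9 tested, 2 fell in SCARKO testes, those of Cldn11 and Jam3, and 0 rose, beside 3.26% and 1.93% of all probe sets. Counted as genes, 2 of 7 fell and 0 rose, beside 3.52% and 2.17% of all 7973 genes tested. The other 7 did not pass (limma adjusted p between 0.26 and 0.99). An unadjusted p under 0.05 was found for 0 of them, beside 20.9% of all probe sets. Of these 7, 6 had a positive log2 fold change, beside 54.5% of all probe sets, but 3 of the 6 belong to 1 gene, Jam2. The median log2 fold change of the 9 was 0.10, against 0.014 for all probe sets tested. Both groups were apart without overlap for Cldn11 and Jam3 alone among the 9, which holds for 4.52% of all probe sets tested and in the direction of a fall for 2.48% (2.78% of genes). Different probe sets carry different probes, so signals are compared between pools and not between genes.

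**Figure D1:**
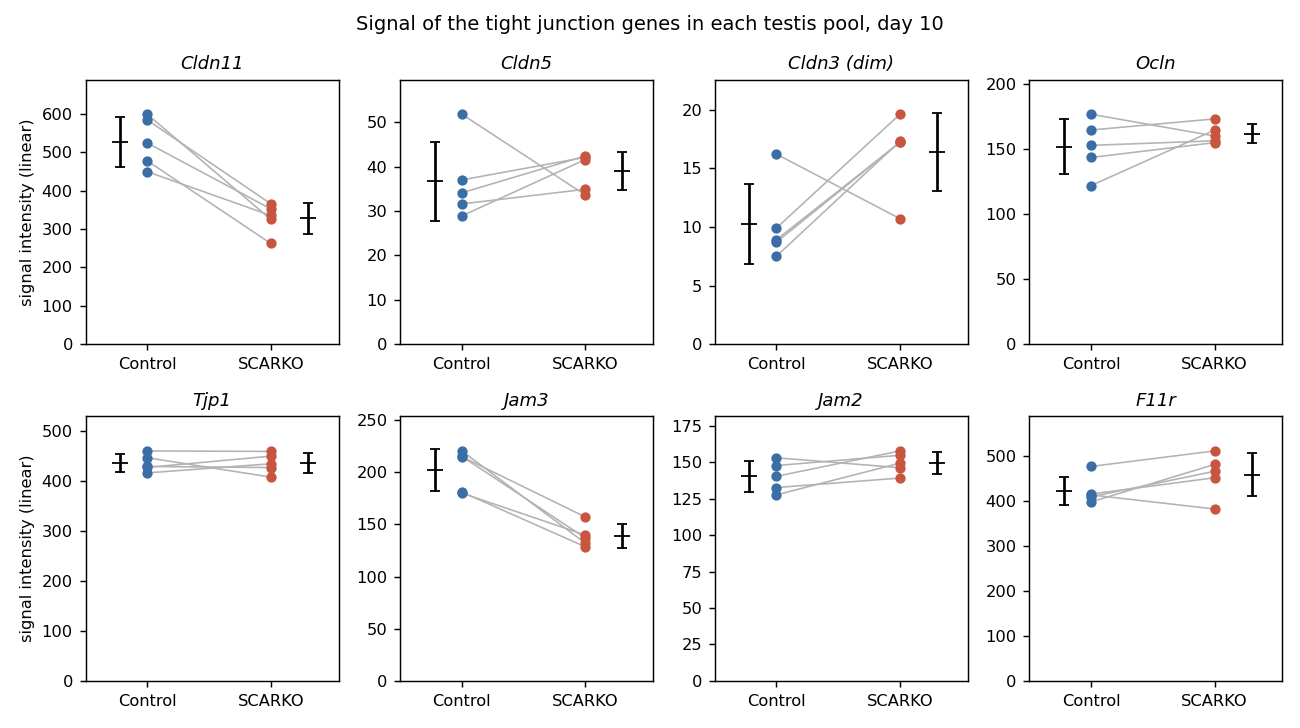
Signal intensity (linear scale, arbitrary units, axes from 0) of the brightest probe set of each of 8 genes in the 5 control and 5 SCARKO pools. Points are pools, grey lines join littermate pairs, and the bars beside them are the mean and SD (n = 5). The control and SCARKO points are apart only for Cldn11 and Jam3 among these 8, and the dim Cldn3 reaches 19.6 at most.

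Among claudins, Cldn11 (gene ID 18417; 1 probe set) passed the test. Its signal was 477.8, 449.5, 524.4, 584.4 and 599.2 in control pools 1 to 5, and 262.5, 335.4, 352.6, 365.8 and 325.2 in SCARKO pools 1 to 5. The highest SCARKO pool lay below the lowest control pool. The means were 527 ± 65.1 and 328 ± 39.96 (SD, n = 5), which is a log2 fold change of -0.68 (SE 0.065, 95% interval -0.83 to -0.54, limma adjusted p = 0.00029). This was 1.61-fold lower in SCARKO. By its p it ranked 17 of 13576 probe sets.

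Cldn11 was lower in SCARKO in all 5 pairs, with log2 ratios of -0.86, -0.42, -0.57, -0.68 and -0.88 in pairs 1 to 5. The smallest fall was in pair 2, and the falls in pairs 1 and 5 were the largest. In whole testis RNA, fewer Sertoli cells and less Cldn11 RNA in each Sertoli cell cannot be told apart from the Cldn11 signal by itself. Neither was tested. For comparison, the Cldn11 log2 ratio was set beside that of 16 Sertoli cell markers from a list that does not hold Cldn11. Of these 16, 0 fell and 3 rose, beside 3.52% and 2.17% of all genes, and 6 had an unadjusted p under 0.05, beside 21.7% of all genes. Those that rose were Fshr, the receptor for FSH, Kitl, which encodes stem cell factor, and the growth factor gene Gdnf. Their limma adjusted p values were 0.026, 0.015 and 0.0496, so Gdnf passed narrowly. Mean signals of Gdnf were 27.5 in control and 36.5 in SCARKO pools. Over the 16, the median log2 fold change was 0.053. Amh, the anti-Müllerian hormone gene of immature Sertoli cells, had the lowest value of the list at -0.71 (SE 0.20, limma adjusted p = 0.065), with mean signals of 30.1 in control and 17.5 in SCARKO pools. Their summed signal ranged from 11823.3 to 12323.7 in control pools and from 11682.1 to 12487.3 in SCARKO pools, so the ranges overlapped. Within pairs, the Cldn11 log2 ratio was lower than the median marker ratio by 0.90, 0.55, 0.57, 0.72 and 0.92 in pairs 1 to 5, a mean difference of -0.73 ± 0.17 (SD, n = 5 pairs). The exact sign-flip permutation test (two-sided) gave p = 0.0625, which is the smallest p that 5 pairs allow. This p follows from the fall of Cldn11 in all 5 pairs, already given above, and is no further support for it. The members and the marker list were chosen with earlier results of these data known.

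The other claudins did not pass or were dim. Cldn5, a claudin best known from endothelium that Sertoli cells also use, had signals of 28.9, 34.1, 31.6, 51.8 and 37.0 in control pools and 41.6, 42.4, 34.9, 33.6 and 42.1 in SCARKO pools. The groups overlapped, and control pool 4 had the highest value of all. The log2 fold change was 0.11 (SE 0.14, 95% interval -0.21 to 0.43, limma adjusted p = 0.72), with 4 of 5 pairs higher in SCARKO. The interval runs from 0.865-fold to 1.34-fold. Single pairs moved the value, which was 0.0048 without pair 1 and 0.29 without pair 4 (limma adjusted p = 0.99 and 0.20). Of 10 tested endothelial markers, 1 rose (Robo4, an endothelial guidance receptor) and 0 fell, beside 2.17% and 3.52% of all genes. An unadjusted p under 0.05 was found for 2 of the 10, beside 21.7% of all genes, and the median log2 fold change was 0.045. Their summed signal was 330.3 to 386.1 in control pools and 341.6 to 412.9 in SCARKO pools. The endothelial marker Tie1 was dim. The part of endothelial content in the Cldn5 values was not tested.

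Cldn3, a claudin of newly forming Sertoli cell junctions, was dim in all 4 of its probe sets, and so it was outside the test. Its brightest probe set (gene ID 12739) had signals of 9.9, 8.9, 8.7, 16.2 and 7.5 in control pools and 19.6, 17.2, 17.2, 10.7 and 17.3 in SCARKO pools. Higher values in SCARKO were seen in pairs 1, 2, 3 and 5 and a lower value in pair 4, in which both pools departed from their groups. The means were 10.2 ± 3.44 and 16.4 ± 3.35 (SD, n = 5). When all probe sets were tested without the filter on dim signals, the log2 fold change was 0.71 and did not pass (limma adjusted p = 0.35). With values under 16 set to 16 it was 0.12, and with 16 added before log2 it was 0.31, so its size depended on how low signals were handled. Means of the other 3 probe sets of Cldn3 were 11, 7.42 and 4.58 in control pools and 14.5, 8.98 and 6.60 in SCARKO pools, with 4, 3 and 3 of 5 pairs higher in SCARKO. None of the 4 gave a value above 23.2 on any array. Among markers listed for epididymal and other epithelium, 5 of 7 on the array were also dim (Aqp9, Krt7, Krt8, Krt19 and Lcn5). Neither tested marker, Epcam or Cdh1, passed, beside 5.69% of all genes called. Which cells gave the Epcam and Cdh1 signals was not tested.

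Occludin and ZO-1 stayed near their control signals. Ocln (gene ID 18260) had signals of 121.7, 152.6, 176.5, 143.3 and 164.4 in control pools and 164.3, 156.1, 159.8, 154.7 and 172.9 in SCARKO pools. The SCARKO values all lay within the control range, and the control spread (SD 20.9) was wider than that of SCARKO (SD 7.35), a difference in spread that was not tested. The log2 fold change was 0.10 (SE 0.076, 95% interval -0.065 to 0.27, limma adjusted p = 0.49). Pair 1 gave a log2 ratio of 0.43, and the other pairs lay between -0.14 and 0.11.

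Tjp1 (gene ID 21872) had the lowest relative spread among control pools of the tested member probe sets. Its signal was 415.9, 426.9, 459.8, 446.2 and 428.8 in control pools and 434.1, 449.3, 458.8, 407.5 and 426.5 in SCARKO pools. The 2 groups covered nearly the same range, with means of 435.5 ± 17.4 and 435.2 ± 19.9997 (SD, n = 5). The log2 fold change was -0.0012 (SE 0.045, limma adjusted p = 0.99), and its 95% interval of -0.099 to 0.097 runs from 0.933-fold to 1.07-fold. The coefficient of variation in control pools was 3.99% for Tjp1, against 12.3% for Cldn11 and 24.4% for Cldn5.

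Of the junctional adhesion molecules, Jam3 alone had a probe set that passed. Jam3 (gene ID 83964), which encodes JAM-C, fell, with signals of 181.0, 180.0, 214.9, 215.2 and 220.4 in control pools and 128.5, 139.8, 157.1, 137.0 and 132.0 in SCARKO pools. The groups did not overlap. The means were 202.3 ± 20.02 and 138.9 ± 11.1 (SD, n = 5), which is a log2 fold change of -0.54 (SE 0.065, 95% interval -0.68 to -0.40, limma adjusted p = 0.0011). This was 1.45-fold lower in SCARKO, and by its p Jam3 ranked 44 of 13576.

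Jam3 was lower in all 5 pairs, with log2 ratios of -0.49, -0.36, -0.45, -0.65 and -0.74 in pairs 1 to 5. As for Cldn11, the smallest fall was in pair 2 and the largest in pair 5. Its other probe set was dim, with values of at most 6.2 on any array and a mean log2 ratio of -0.027, so the fall rests on 1 probe set. Against the Sertoli marker median, the Jam3 log2 ratio was lower in 5 of 5 pairs, by a mean of -0.59 ± 0.14 (SD; exact sign-flip permutation test, p = 0.0625, the smallest possible). This difference for Jam3 was computed after its values had been seen.

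Jam2, which encodes JAM-B, the binding partner of JAM-C, had 3 tested probe sets (gene ID 67374). The brightest had signals of 132.6, 153.0, 127.6, 147.7 and 140.3 in control pools and 139.1, 146.2, 149.3, 154.7 and 157.7 in SCARKO pools. The groups overlapped, and the log2 fold change was 0.093 (SE 0.060, 95% interval -0.039 to 0.23, limma adjusted p = 0.42). The other 2 tested probe sets gave 0.13 and 0.21 (limma adjusted p = 0.45 and 0.26), each with the same sign in 5 of 5 pairs, and the 3 agreed in sign. A further, dim probe set had a mean log2 ratio of 0.084.

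F11r (gene ID 16456), which encodes JAM-A, an adhesion molecule found on epithelial, endothelial and blood cells, had signals of 397.0, 408.5, 414.6, 412.7 and 475.9 in control pools and 480.3, 465.1, 450.8, 381.5 and 510.3 in SCARKO pools. Control pool 5 stood above the other control pools, and SCARKO pool 4 held the lowest value of all 10. The log2 fold change was 0.11 (SE 0.055, 95% interval -0.0060 to 0.23, limma adjusted p = 0.27), with 4 of 5 pairs higher in SCARKO. For F11r the value was 0.17 without pair 4 and 0.074 without pair 1 (limma adjusted p = 0.099 and 0.54). Its other probe set was dim and reached 9.4 at most.

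**Figure D2:**
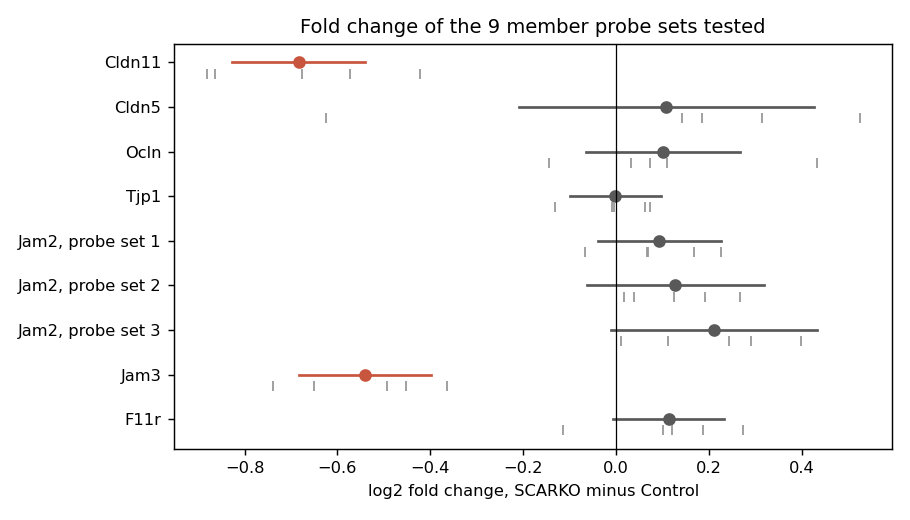
Log2 fold change (SCARKO minus control) of the 9 tested member probe sets, with points for the limma estimate, horizontal bars for the 95% interval and small ticks for the log2 ratios of the 5 littermate pairs. Red marks the probe sets that passed at an adjusted p under 0.05. Cldn11 (-0.68) and Jam3 (-0.54) lie to the left of 0 with all 5 pairs, while the other 7 estimates lie between -0.0012 and 0.21.

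The members were also set against each other within pairs. The log2 ratio of Cldn11 was below that of Ocln, Tjp1, F11r, Jam2 and Cldn5 in 5 of 5 pairs, with mean differences between -0.80 and -0.68, and that of Jam3 was below the same 5 genes in 5 of 5 pairs, with mean differences between -0.65 and -0.54. The log2 ratio of Cldn11 was below that of Jam3 by a smaller amount, with a mean difference of -0.14 ± 0.14 (SD, n = 5 pairs) and the same sign in 5 of 5 pairs. Each of these 11 comparisons gave p = 0.0625 by the exact sign-flip permutation test (two-sided), also after Benjamini-Hochberg adjustment over the 11, and 5 pairs allow no smaller value. They were chosen after the values were seen.

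The calls of Cldn11 and Jam3 depended on the filter on dim signals. Without it, when all 22626 probe sets were tested, 0.168% were called in all, and both missed the threshold with the same log2 fold changes (limma adjusted p = 0.054 for Cldn11 and 0.056 for Jam3). With each pair left out in turn, both remained called each time.

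Of 8 tested markers of meiotic germ cells, 3 fell (Stag3, Hspa2 and Tex15) and 0 rose, beside 3.52% and 2.17% of all genes, and 7 had an unadjusted p under 0.05, beside 21.7% of all genes. The list had a median log2 fold change of -0.25 and a summed signal of 1963.2 to 2910.9 in control pools and 1630.9 to 2159.9 in SCARKO pools, so the ranges overlapped. No such marker was dim. By pair, the median marker ratio was -0.12, -0.37, -0.44, -0.068 and -0.32 in pairs 1 to 5. In the same pairs the log2 ratio was -0.86, -0.42, -0.57, -0.68 and -0.88 for Cldn11 and -0.49, -0.36, -0.45, -0.65 and -0.74 for Jam3, so Jam3 was close to the meiotic median in pairs 2 and 3 and well below it in pairs 1, 4 and 5. Of 10 markers of spermatogonia and all germ cells, 0 passed, with 3 at an unadjusted p under 0.05 and a median of 0.093. Among tested markers of peritubular myoid cells, Leydig cells and macrophages (7, 5 and 7 genes), limma called 0 in each, with 2, 1 and 2 at an unadjusted p under 0.05 and medians of -0.12, -0.030 and 0.11. The summed myoid signal was 2879.5 to 3263.3 in control pools and 2547.2 to 2972.3 in SCARKO pools, that of Leydig markers 863.6 to 1159.6 and 894.8 to 1265.9, and that of macrophage markers 382.2 to 525.8 and 445.1 to 536.7, so each pair of ranges overlapped. The macrophage marker Cd163 was dim. Log2 fold changes were positive for 0 of 8 meiotic, 9 of 10 spermatogonial and 1 of 7 myoid markers. They were positive for 2 of 5 Leydig and 7 of 7 macrophage markers, beside 55% of all genes. Bright probe sets weigh most in a summed signal, so overlapping sums do not show that a list was unchanged. The part of these cell types in the Cldn11 and Jam3 values was not tested.

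**Figure D3:**
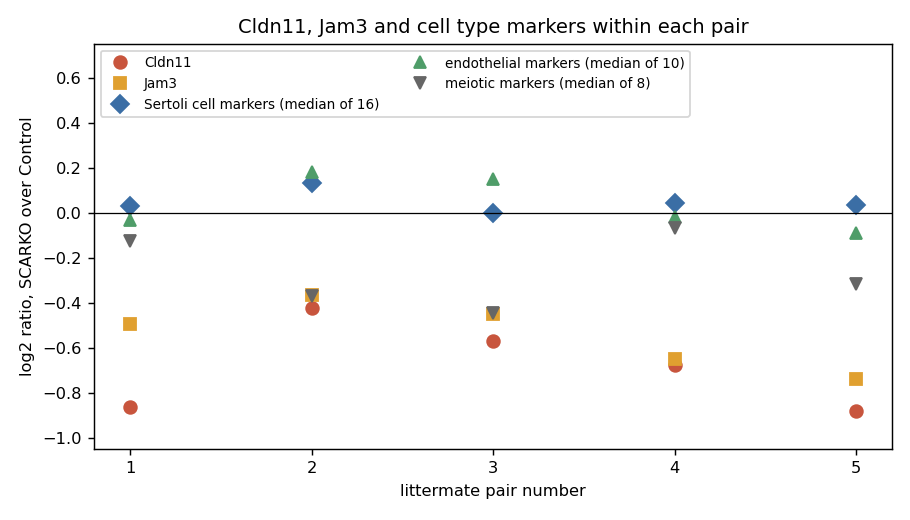
Log2 ratio (SCARKO over control) within each of the 5 littermate pairs for Cldn11 and Jam3, beside the median ratio of 16 Sertoli cell, 10 endothelial and 8 meiotic germ cell markers. Cldn11 runs from -0.88 to -0.42 and Jam3 from -0.74 to -0.36, while the Sertoli medians stay between -0.0037 and 0.13 and the meiotic medians range from -0.44 to -0.068.

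Other genes of the tight junction gave no call. A list of 57 further genes held 47 on the array, of which 27 were tested. Limma called 0 of the 27, with 5 at an unadjusted p under 0.05, against 5.69% of all genes called and 21.7% at an unadjusted p under 0.05. Their median log2 fold change was -0.00096 (0.015 over all 7973 genes), and 13 of 27 were positive, against 55% of all genes. The other 20 genes on the array were dim, and 13 of them were claudins, among which no probe set exceeded a mean signal of 17.2 over the 10 arrays.

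By role, the 2 further claudins tested were Cldn23 (log2 fold change -0.19, SE 0.22, limma adjusted p = 0.67) and Cldn1 (-0.081, 0.72). A dimmer tested probe set of Cldn1 had the opposite sign, at 0.090 (limma adjusted p = 0.78). The sign for Cldn23 rested on pair 5, without which it was 0.087. The MARVEL domain gene Marveld2, which encodes tricellulin, the protein that seals corners where 3 cells meet, gave 0.15 (limma adjusted p = 0.39), and Lsr, which encodes the receptor angulin-1 that recruits it, gave -0.066 (0.64). The groups overlapped for each of these 4 genes.

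In the immunoglobulin group, Cxadr, which encodes the coxsackie and adenovirus receptor, a cell adhesion protein, came nearest to the threshold. Its brightest probe set had signals of 36.5, 45.8, 41.7, 33.3 and 34.9 in control pools and 50.2, 47.4, 50.9, 46.8 and 53.3 in SCARKO pools. The lowest SCARKO pool was above the highest control pool, and the log2 fold change was 0.38 (SE 0.0998, limma adjusted p = 0.052). Its call depended on the setting, since it passed at 0.027 without pair 2, at 0.04995 with 16 added before log2 and at 0.049 with values under 16 set to 16. Its 2 other tested probe sets disagreed with each other, at 0.0057 and 0.46 (limma adjusted p = 0.98 and 0.081). Clmp, a relative of Cxadr, gave 0.041, and the endothelial adhesion gene Esam gave -0.048 (limma adjusted p = 0.83 and 0.90).

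Among plaque proteins, Cgnl1, which encodes paracingulin, had signals of 128.3, 104.8, 109.3, 118.2 and 116.4 in control pools and 130.2, 133.0, 135.3, 138.3 and 144.1 in SCARKO pools. The groups did not overlap, but the margin was a signal of 128.3 against 130.2. The log2 fold change was 0.24 (SE 0.065, limma adjusted p = 0.057), and Cgnl1 passed without pair 1 (0.042) or with the lowest 60% of probe sets left out (0.045). The other tested probe set of Cgnl1 gave 0.12 (limma adjusted p = 0.63). Mpdz, which encodes the multi-PDZ scaffold MUPP1, gave 0.16 (0.18), and the scaffold gene Magi1 gave 0.11 (0.69).

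Of the polarity genes, Pard3, whose product places the junction along the cell, had signals of 45.3 to 52.5 (median 47.5) in control pools and 54.6 to 61.6 (median 56.4) in SCARKO pools. The groups did not overlap, and the log2 fold change was 0.26 (SE 0.082, limma adjusted p = 0.095). Cdc42, a small GTPase of the polarity complex, gave -0.089 (limma adjusted p = 0.24). Its 3 other probe sets gave -0.013, -0.054 and -0.036. The kinase gene Prkcz gave 0.16 (limma adjusted p = 0.41). Of the trafficking and other regulators, the vesicle traffic gene Rab13 gave 0.11, Arhgap17 -0.097 and Arhgef2 0.063 (limma adjusted p of 0.51, 0.53 and 0.77). Other tested probe sets of Arhgef2 had the opposite sign, at -0.096 and -0.127 (limma adjusted p = 0.71 and 0.55). The groups were apart for 3 of the 27 genes (Cxadr, Cgnl1 and Pard3, all higher in SCARKO), or 11.1%, against 5.26% of all genes tested.

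**Figure D4:**
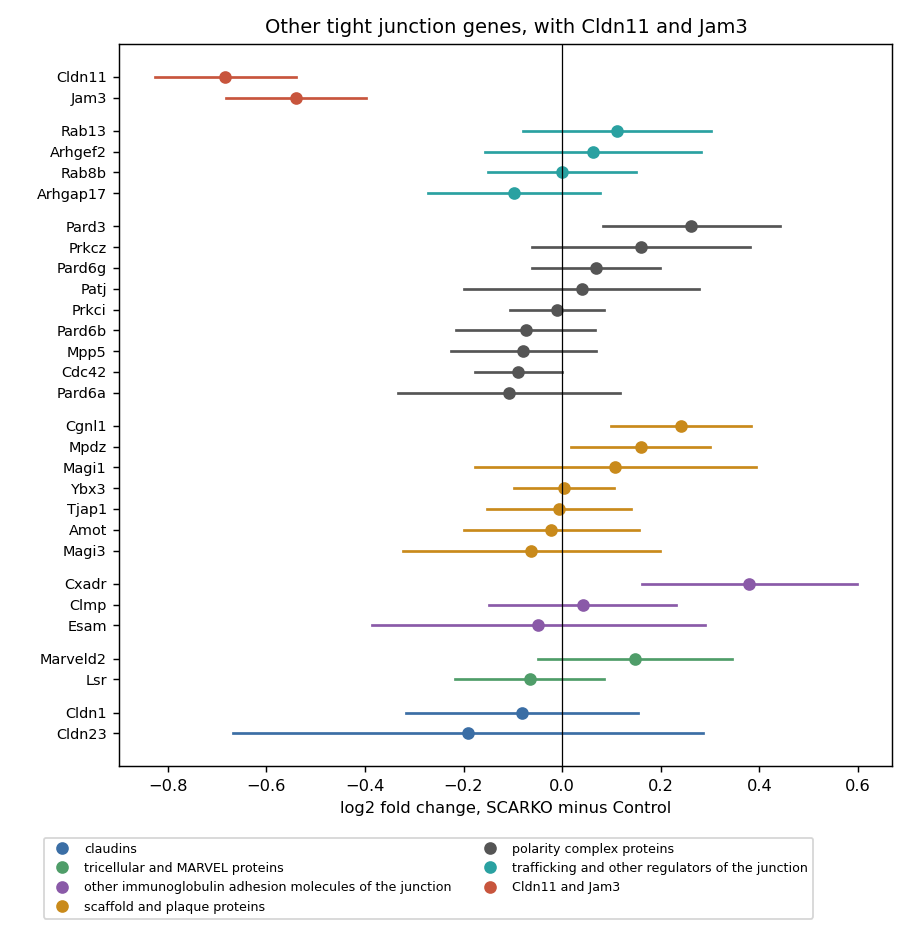
Log2 fold change (SCARKO minus control) of the 27 other tight junction genes tested, each by its brightest probe set, grouped and coloured by role, with Cldn11 and Jam3 in red at the top. Points are limma estimates and bars 95% intervals. Estimates of the 27 lie between -0.19 and 0.38, and those of Cldn11 and Jam3 at -0.68 and -0.54.

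The genes whose pattern was most like that of Cldn11 were named by Pearson correlation over the 10 arrays, after the mean of each littermate pair was subtracted. They were Micos10, which shapes mitochondrial cristae (r = 0.998), the phosphoinositide kinase gene Pip5k1b (0.997), Tpd52l1 (0.997), the cytochrome P450 gene Cyp2s1 (0.995) and the transcription factor gene Klf9 (0.993). For Jam3 they were the heat shock protein gene Hspa1b (0.996), Plat, which encodes tissue plasminogen activator (0.996), the transaminase gene Gpt2 (0.995), the dopamine receptor gene Drd4 (0.993) and the malate dehydrogenase gene Mdh1 (0.993). All 10 fell in SCARKO, with log2 fold changes from -2.38 (Drd4) to -0.19 (Micos10). Jam3 ranked 29 among 7972 genes by likeness to Cldn11 and Cldn11 ranked 22 by likeness to Jam3 (r = 0.98). After the pair means are removed, the arrays mainly share the group difference, so a high r mostly reflects a fall in SCARKO, and the order among these genes reflects how closely the size of their fall by pair followed that of Cldn11 or Jam3. With 1 pair left out, 1 or 2 of the 5 genes remained for Cldn11 and 0 to 2 for Jam3, so the order among the most alike rested on single pairs.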

How the data were processed

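Whole-testis RNA was hybridised to Affymetrix mouse arrays, 5 control and 5 SCARKO pools. The deposited values are signal intensities, 1 per probe set, from MAS5 per the submitters' processing notes for 8 arrays; none is named for pair 5, and no version is given. Intensities under 1 were set to 1, log2 was taken, array controls and the lowest 40% of probe sets by mean were left out, and limma 3.58.1 (R 4.3.3) was fitted over all 10 arrays with the littermate pair as a block, a trended prior and Benjamini-Hochberg adjustment over 13576 probe sets. The titles number the pairs, and littermate pools were paired per the labels' protocols. Deviations of same-numbered pools correlated at 0.275, 0.186, 0.190, 0.109 and 0.386. The highest correlations with a pool of another number were -0.00813, 0.0783, 0.109, 0.109 and 0.0104, so pair 4 did not stand out. The script was tested on simulated data. Symbols are the RefSeq ones for the gene IDs in the platform annotation, or the platform's own where RefSeq gave none. A gene with several probe sets is given by its brightest. The members and all lists were chosen with earlier results of these data known. Named genes were all members, up to 3 further tight junction genes per role by p, and the 5 genes most like each called member. Values of the targeted gene are not reported here, and groups rest on the labels. Alternatives were no block, other handling of low values and filters, quantile normalization, no trend, groups from the descriptions, and each pair left out.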

Additional observations from a re-analysis of the deposited data

Results flagged for a closer look

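A pool far from the other 4 of its group was found in 7 of 64 groups examined, where chance gives about 1 in 20. In the brightest Cldn3 probe set, which is dim, control pool 4 (16.2) stood above the others (7.5 to 9.9) and SCARKO pool 4 (10.7) below the others (17.2 to 19.6). F11r was high in control pool 5 at 475.9 (others 397.0 to 414.6). Cldn1 was high in SCARKO pool 5 at 55.6 (34.7 to 39.7), Marveld2 low in SCARKO pool 4 at 42.2 (49.7 to 51.8), Clmp high in control pool 5 at 64.1 (44.5 to 48.7) and Arhgef2 high in control pool 1 at 46.7 (41.5 to 42.9). No pool of Cldn11 or Jam3 stood apart in this way.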

How the results depend on the processing

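Cldn11 and Jam3 were the 2 member probe sets called under every alternative run except testing without the filter on dim signals (0 called) and grouping by the descriptions (0 called). Without the pairing as a replicate block, 404 probe sets were called in place of 704, and the 2 members stayed called. The total was 38 without the filter, 321 without the trend, 0 by the descriptions and 304 to 744 with a pair left out. Of the other tight junction genes, 1 passed with 16 added or a floor of 16 (Cxadr), 1 with the lowest 60% left out (Cgnl1), and 0 to 1 with a pair left out. The difference of Cldn11 from the Sertoli marker median was -0.78 to -0.68 elsewhere and 0.36 (exact sign-flip permutation p = 0.375) by the descriptions; it cannot be formed without pairs. Grouping by the descriptions swaps 8 of 10 arrays, and this construction turned the sign to 0.33 for Cldn11, 0.24 for Jam3, 2.39 for Rhox5, -0.034 for Cldn5, -0.072 for Ocln, -0.074 for F11r, -0.026, -0.11 and -0.095 for Jam2, 0.051 for Cldn1, -0.094 for Marveld2, 0.051 for Lsr, -0.14 for Cxadr, -0.052 for Clmp, -0.12 for Cgnl1, -0.068 for Magi1, -0.11 for Mpdz, -0.14 for Pard3, 0.015 for Cdc42, -0.061 for Rab13, -0.11 for Arhgef2 and 0.16 for Arhgap17. With a pair left out, the values of 5 named genes above the filter changed sign, and they ranged from -0.02 to 0.031 for Tjp1, -0.39 to 0.087 for Cldn23, -0.15 to 0.11 for Esam, -0.0030 to 0.098 for Clmp and -0.029 to 0.11 for Arhgef2, none of which was called. The number of arrays and signals near background limit what can be measured for Cldn3.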
